A study of Mus musculus with 7 samples.

Results

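The genes described here are those of major histocompatibility complex (MHC) class I and class II in cells sorted from mouse spleen. Members are the protein-coding genes of the expression table whose name starts with H2-, the prefix of the mouse MHC, together with B2m, Cd74, Ciita, Nlrc5, Tap1, Tap2 and Tapbp. They number 41 of the 54532 genes in the table. By their names, 24 encode class I heavy chains, 2 of them classical (class Ia) and 22 non-classical (class Ib), and 9 encode class II chains. Another 5 encode partners of these chains, 2 encode transactivators, and H2-Ke6 lies among the MHC genes but belongs to neither class.

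The cells came from IL-17GFP/+ reporter mice, in which green fluorescent protein marks cells that express IL-17, and were sorted for that fluorescence after red blood cell lysis. Their label is Th17, the T helper subset named for the cytokine IL-17. The periodontitis group (3 libraries, numbered 2 to 4) had a silk ligature tied around the first molar on each side of the lower jaw, which inflames the gum. The health group (4 libraries, numbered 1 to 4) carried the same reporter allele and had no ligature. The labels give no age and tie no library to a single mouse, and p-values then measure only the spread between libraries.

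Class I molecules pair a heavy chain with beta-2-microglobulin and show peptides from the cytosol to CD8 T cells; nearly every nucleated cell makes them. Class II molecules pair an alpha with a beta chain, take peptides from endosomes and show them to CD4 T cells. In mice they are made mainly by B cells, dendritic cells and macrophages, and mouse T cells are known for making little or none. The transactivator CIITA drives class II genes, and NLRC5 drives class I genes.

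RNA was measured as FPKM, reads per kilobase of gene scaled to the size of the library, from 13513806 to 16717942 reads in the periodontitis libraries and from 14161438 to 17891393 in the health libraries. Other features of the libraries moved with the groups. Il17a, the cytokine gene behind the sort, had 13841 reads over the periodontitis libraries and 94 over the health libraries. Xist, an RNA of female cells, was at 0.135 to 1.35 FPKM in periodontitis and 52.1 to 72.5 in health, while the Y-linked Ddx3y was at 9.22 to 16.9 FPKM in periodontitis and had no read in health. In every result below, sex and periodontitis cannot be told apart. All 12 T cell markers were higher in periodontitis and all 14 macrophage markers were lower, with limma at a Benjamini-Hochberg adjusted threshold of 0.05. By the same calls 5.63% of all 12999 tested genes were higher and 10.2% lower. The summed T cell markers were at 1645 to 3594 FPKM in periodontitis and 241 to 525 in health, and the summed macrophage markers at 442 to 999.7 FPKM in periodontitis and 5622 to 15581 in health. The erythroid sum was at 5466 to 17734 FPKM in periodontitis and 2343 to 4160 in health, with 2 of 7 genes higher, and the plasma cell sum at 693 to 2395 FPKM in periodontitis and 405 to 668 in health, with 1 of 7 higher. Of 7 neutrophil markers 3 were lower, and their sums overlapped, at 4051 to 17595 FPKM in periodontitis and 11183 to 18383 in health. Features under 200 bases took 1.40%, 36.7% and 24.2% of the FPKM total in periodontitis 2, 3 and 4 and 3.31% to 9.63% in health. The part of these in the results below was not tested. In bulk RNA, fewer cells of a type and less RNA per cell cannot be told apart.

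The start-site regions of the 2 classes differed in which of a few chosen sequence motifs they carried. Of the 41 members, 34 had a promoter in the RefSeq table (GRCm38.p6), taken from 250 bases before to 50 bases after the start. In the promoters of H2-K1 (chr17:34000284-34000583, minus strand), H2-D1 (chr17:35262844-35263143, plus strand) and H2-Q7 (chr17:35438905-35439204, plus strand) below, capitals mark every match, on either strand, to GGGATTCCC (an NF-kB motif), TTTCACTTC (an interferon response core), TGACG (a CRE core) and CCAAT, written ATTGG on the other strand. H2-K1 has 2 promoters in the table, and 1 is shown. These 3 are shown because they are the 2 classical class I genes and the class I gene with the largest log2 change among the members.
H2-K1: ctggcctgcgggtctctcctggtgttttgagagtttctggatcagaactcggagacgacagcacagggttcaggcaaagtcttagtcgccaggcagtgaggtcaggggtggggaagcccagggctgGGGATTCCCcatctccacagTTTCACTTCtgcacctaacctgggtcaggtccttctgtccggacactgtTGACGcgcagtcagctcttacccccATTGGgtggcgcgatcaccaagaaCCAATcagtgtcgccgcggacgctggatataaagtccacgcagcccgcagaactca
H2-D1: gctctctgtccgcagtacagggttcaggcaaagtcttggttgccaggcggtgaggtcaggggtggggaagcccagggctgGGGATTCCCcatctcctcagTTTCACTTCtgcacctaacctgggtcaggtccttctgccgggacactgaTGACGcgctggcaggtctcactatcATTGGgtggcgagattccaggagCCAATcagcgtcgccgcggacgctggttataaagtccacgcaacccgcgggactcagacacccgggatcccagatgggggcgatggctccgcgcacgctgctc
H2-Q7: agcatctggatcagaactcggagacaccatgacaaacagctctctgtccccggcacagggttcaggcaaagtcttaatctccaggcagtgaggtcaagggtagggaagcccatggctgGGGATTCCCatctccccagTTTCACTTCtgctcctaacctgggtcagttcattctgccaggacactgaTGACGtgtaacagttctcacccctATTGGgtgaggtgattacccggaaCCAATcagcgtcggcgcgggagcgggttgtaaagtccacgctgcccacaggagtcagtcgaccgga

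The class II promoters shown are those of H2-Aa (chr17:34287774-34288073, minus strand), H2-Eb1 (chr17:34305617-34305916, plus strand) and H2-DMb1 (chr17:34152941-34153240, plus strand). H2-Aa and H2-Eb1 encode peptide-presenting class II chains, and H2-DMb1 is the member that passed the test. Capitals mark AACNGATG, the core of the class II X box, and the same CRE core and CCAAT box. In H2-Aa the capital run TGACGTCA holds 2 overlapping CRE cores, one on each strand.
H2-Aa: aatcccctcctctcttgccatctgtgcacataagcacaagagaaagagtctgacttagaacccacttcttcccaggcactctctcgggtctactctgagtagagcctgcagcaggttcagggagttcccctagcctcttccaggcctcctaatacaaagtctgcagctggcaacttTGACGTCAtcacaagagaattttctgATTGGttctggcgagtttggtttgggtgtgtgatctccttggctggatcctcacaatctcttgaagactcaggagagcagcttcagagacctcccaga
H2-Eb1: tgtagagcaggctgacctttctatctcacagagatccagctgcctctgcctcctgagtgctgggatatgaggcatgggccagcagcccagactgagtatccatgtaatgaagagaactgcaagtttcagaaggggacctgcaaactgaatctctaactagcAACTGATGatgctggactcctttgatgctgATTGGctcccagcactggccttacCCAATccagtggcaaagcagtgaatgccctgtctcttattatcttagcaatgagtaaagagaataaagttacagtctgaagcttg
H2-DMb1: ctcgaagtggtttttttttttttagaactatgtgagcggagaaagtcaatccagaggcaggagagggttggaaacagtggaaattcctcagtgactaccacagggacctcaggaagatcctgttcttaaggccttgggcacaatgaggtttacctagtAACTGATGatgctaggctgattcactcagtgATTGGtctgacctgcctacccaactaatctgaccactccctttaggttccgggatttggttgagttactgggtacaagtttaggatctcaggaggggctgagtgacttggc

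The NF-kB motif was in the promoters of H2-K1, H2-D1, H2-Q6 and H2-Q7, which are 2 of 2 class Ia and 2 of 20 class Ib promoters, in 0 of 8 class II promoters and in 116 of 32851 promoters of the same length, or 0.353%. The interferon response core was in both class Ia promoters and in 5 of 20 class Ib promoters (H2-M3, H2-Q4, H2-Q6, H2-Q7 and H2-Q10). It was in 0 of 8 class II promoters and in 0.505% of all promoters. The X box core was in 4 of 8 class II promoters (H2-DMb1, H2-DMb2, H2-Eb1 and H2-Eb2), in 0 of 2 class Ia, 1 of 20 class Ib and 2.32% of all promoters. CCAAT was in both class Ia, 17 of 20 class Ib and all 8 class II promoters, but also in 37.4% of all promoters. The CRE core was in both class Ia, 9 of 20 class Ib and 1 of 8 class II promoters (H2-Aa), and in 20.8% of all promoters. A match to these letters is not a binding site, and the search covered only this window. Only a few motifs picked by hand were searched, and the X box core is by its name a class II motif. The counts therefore describe these letters and do not test a difference between the classes. For some genes the window is not at the deposited gene start. That of H2-DMa runs from 34125268 to 34125567, upstream of a gene start at 34135182. That of H2-DMb2 runs from 34144999 to 34145298, inside a gene that starts at 34143307.

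Set against class I in the same library, class II was lower in every periodontitis library than in any health library, while the level of each class on its own depended on how libraries were scaled. The summed class I level was 5201, 3744 and 3101 FPKM in periodontitis libraries 2, 3 and 4, against 2266, 2499, 2893 and 2349 FPKM in health libraries 1 to 4. On this deposited scale every periodontitis library stood above every health library, with means of 4015 ± 1076 FPKM in periodontitis and 2502 ± 278 in health (SD, n = 3 and 4). The summed class II level was 2167, 974 and 1824 FPKM in periodontitis and 1602, 2094, 2471 and 2627 FPKM in health. Here the groups overlapped, because periodontitis 2 and 4 lay within the health range. As a percent of each library's FPKM total, a scaling added after the values were seen, class II and not class I separated the groups. The class I sum was then 0.914%, 0.788% and 0.588% in periodontitis and 0.603%, 0.659%, 0.770% and 0.621% in health, with periodontitis 4 the lowest of all libraries. The class II sum was 0.381%, 0.205% and 0.346% in periodontitis and 0.426%, 0.552%, 0.657% and 0.695% in health, without overlap. With features under 200 bases left out of the total, both classes overlapped between the groups. As a percent of recovered reads the class I sums did not overlap, at 0.854% to 1.22% in periodontitis and 0.542% to 0.790% in health, and the class II sums did. Class II over class I was 0.417, 0.260 and 0.588 in the periodontitis libraries, and 0.707, 0.838, 0.854 and 1.12 in the health libraries. No library of one group reached the other on this ratio, whose log2 value was lower in periodontitis by a mean difference of -1.12. This ratio of sums is a description with no test, and it does not depend on how libraries are scaled to each other. Without each library in turn the difference ran from -1.40 to -0.81.

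**Figure D1:**
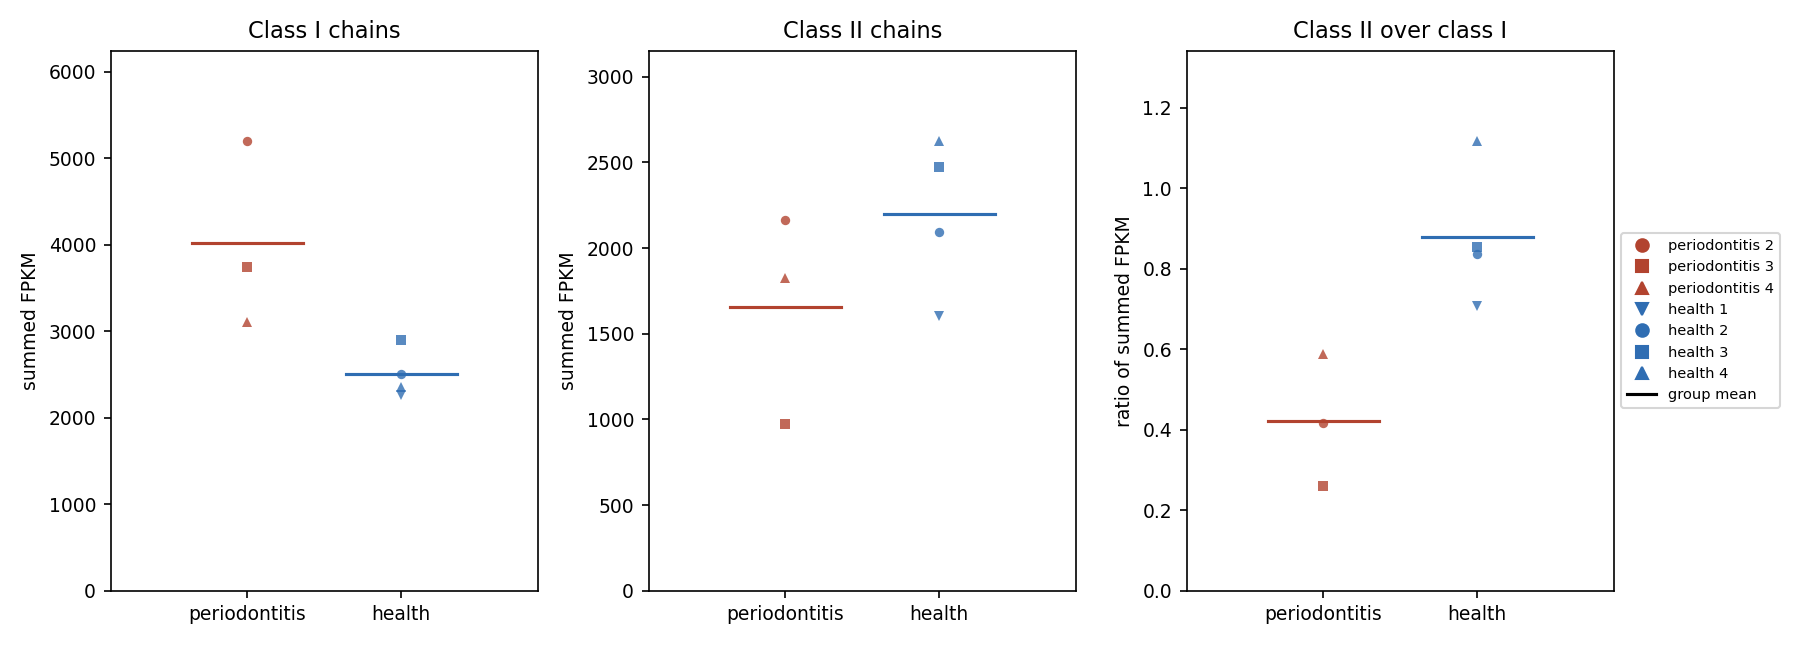
Summed FPKM of the class I chain genes, of the class II chain genes and their ratio, with 1 point per library and a line at the group mean for periodontitis (n = 3) and health (n = 4). In deposited FPKM the class I sums and the ratio separate the groups and the class II sums overlap; only the ratio is independent of the scaling.

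Gene by gene, few of these differences passed the test. Of the 41 members 28 reached a mean of 1 FPKM and were tested with limma on log2(FPKM + 1), among 12999 genes. None was called higher in periodontitis, where 5.63% of all tested genes were, and 1 was called lower, where 10.2% were, out of 15.8% called in either direction. At an unadjusted p under 0.05, 5 members were higher and 4 lower, where 12.4% and 17.9% of all tested genes were. Limma voom on the reads called 1 member higher and 1 lower, where it called 5.73% and 9.78% of all tested genes. In deposited FPKM the groups did not overlap for 6 members higher in periodontitis and 1 lower, against 12.6% and 17.2% of all tested genes. By adjusted p, both shares of members called are below those of all genes. By unadjusted p and by overlap, the share of members higher is above that of all genes and the share lower is below. With 28 members tested these counts are small, and their distance from the shares of all genes was not tested.

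The medians of the 2 classes lay on either side of the median of all genes; the difference between the classes was not tested. Of the 12 class I genes tested 9 had a positive log2 change and 3 a negative one, with a median of 0.67 and a range of -1.15 to 1.54. Of the 9 class II genes 2 had a positive and 7 a negative log2 change, with a median of -0.43 and a range of -1.65 to 0.22. The median over all tested genes was -0.06, with quartiles of -0.58 and 0.41. The class II median thus lay between the quartiles of all genes and the class I median outside it. Among class I genes H2-K1, H2-D1, H2-Q2, H2-Q4, H2-Q6, H2-Q7, H2-T22 and H2-T23 kept a positive sign under each scaling, filter and left-out library tried. H2-M2, H2-M3 and H2-T24, also class I, kept a negative sign. Among class II genes H2-Aa, H2-Ab1, H2-Eb1, H2-Eb2, H2-DMa and H2-DMb1 kept a negative sign. Outside the chains, Tap1 and Nlrc5 stayed positive, and Cd74 and Ciita stayed negative. H2-M2 and H2-Q2 fell below the stricter filter and were not fitted under it.

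**Figure D2:**
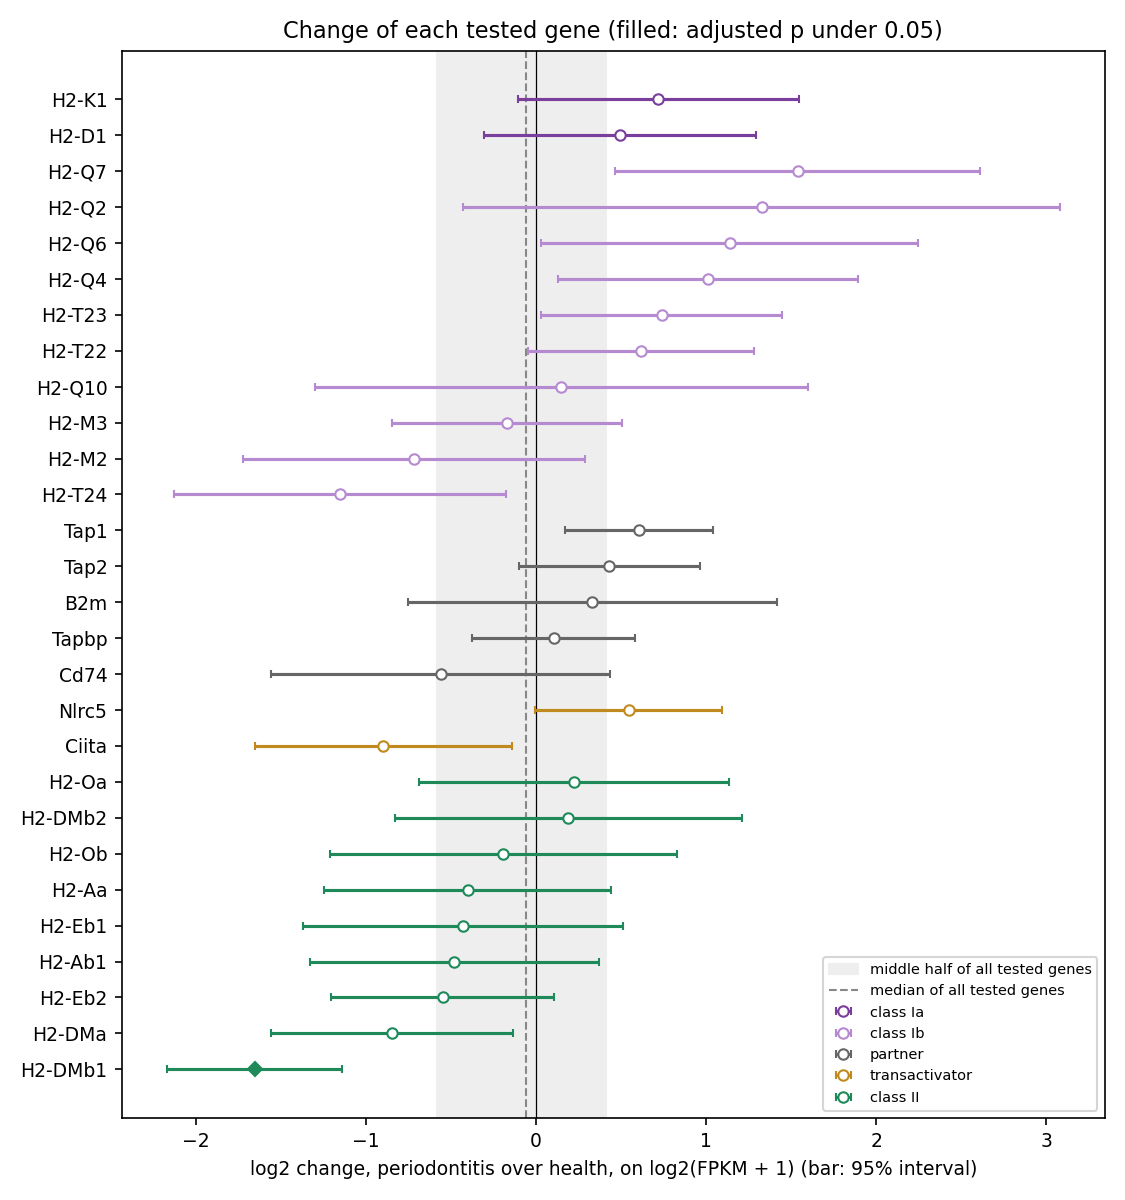
Log2 change of each of the 28 tested genes, periodontitis over health on log2(FPKM + 1), with 95% intervals (n = 3 and 4), grouped by class, with the median and the quartiles of all 12999 tested genes behind. Only H2-DMb1 is filled, at -1.65, and most class I genes lie to the right of the class II genes.

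The classical heavy chains H2-K1 and H2-D1, which present peptides to CD8 T cells, were the most abundant class I genes in every library. H2-K1 was at 2033, 1388 and 1089 FPKM in periodontitis 2, 3 and 4 and at 800.0, 862, 1037 and 849 FPKM in health 1 to 4. H2-D1 was at 1933, 1276 and 1223 FPKM in periodontitis and at 1083, 1019, 1094 and 916 in health. For both genes the groups did not overlap in deposited FPKM, and periodontitis 2 was the highest library. The log2 change was 0.72 (SE 0.36, 95% interval -0.11 to 1.54) for H2-K1, with a limma adjusted p of 0.221. For H2-D1 it was 0.49 (SE 0.35, -0.31 to 1.29), with a limma adjusted p of 0.376. Neither difference passed the test, and with every library at the same FPKM total the log2 changes were 0.25 for H2-K1 and 0.025 for H2-D1. H2-K1 made up 37.1% ± 1.99 of the class I sum in periodontitis and 35.5% ± 0.722 in health, so the share of this gene was nearly constant while the sum differed. The share of H2-D1 varied more, at 36.9% ± 2.69 in periodontitis and 41.3% ± 4.46 in health, where health 1 had 47.8%.

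The Q region genes encode class Ib chains close in sequence to the classical ones, and H2-Q6 and H2-Q7 encode the Qa-2 antigen. H2-Q7 was at 204, 173 and 114 FPKM in periodontitis, against 21.5, 77.0, 84.5 and 60.6 FPKM in health. H2-Q6 was at 300.4, 355 and 237 FPKM in periodontitis, against 50.2, 168, 215 and 171 in health. H2-Q4 was at 206, 229 and 162 FPKM in periodontitis, against 46.3, 115, 136 and 124 in health. All 3 separated the groups, and health 1 was the lowest library for each. The log2 change of H2-Q7 was 1.54 (SE 0.47, 0.47 to 2.61), the largest positive one among the members, with a limma adjusted p of 0.0603. It missed the threshold here and passed it in limma voom on the reads, with an adjusted p of 0.0426. H2-Q6 differed by 1.14 (SE 0.49, limma adjusted p 0.155) and H2-Q4 by 1.01 (SE 0.39, limma adjusted p 0.118).

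As a percent of each library's FPKM total the Q region sums overlapped, and as deposited they did not. The Q region sum was 725, 765 and 520.3 FPKM in periodontitis and 119, 370.5, 441 and 359 in health. Its mean was 670.1 ± 131 FPKM in periodontitis and 322 ± 140.2 in health, a ratio of 2.08. Its share of the class I sum was 17.0% ± 3.25 in periodontitis and 12.7% ± 4.93 in health, where health 1 had 5.26%. H2-Q7 over H2-Q6 was 0.679, 0.486 and 0.483 in periodontitis and 0.428, 0.458, 0.394 and 0.355 in health, so the 2 genes did not keep one ratio. H2-Q2 was at 11.4, 4.47 and 0 FPKM in periodontitis and at 0.801, 0.899, 0.0289 and 0.9999 in health. Its log2 change of 1.33 (SE 0.77, limma adjusted p 0.284) rested on periodontitis 2 and 3: without periodontitis 4 it was 2.34, with a limma adjusted p of 0.0151. H2-Q10, a chain known as a secreted product of mouse liver, was at 2.40 to 6.75 FPKM in periodontitis and 0.388 to 9.27 in health, with a log2 change of 0.15 (SE 0.63, limma adjusted p 0.894).

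Sequence shared with other genes makes several of the Q and T genes uncertain. Of the 100-base words in the H2-Q6 transcripts 13.04% also occur in transcripts of other genes, as do 11.98% of those of H2-Q7 and 14.1% of those of H2-Q4. For H2-T22 this share was 31.5%, most of it with A930015D03Rik, and most of the H2-Q4 share was with Gm11131. For H2-T23 the share was 3.15% and for H2-T24 0, beside 0.957% for H2-K1 and 3.59% for H2-D1. How reads that match several genes were counted, and on which strand, is not given in the sources used here. Outside the rule, the Q region entry H2-Q5, which the table does not list as protein-coding, was at 85.6, 108 and 68.2 FPKM in periodontitis and 16.1, 49.2, 57.4 and 49.0 in health.

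The T and M genes did not move as one. H2-T23 encodes Qa-1, which presents leader peptides of other class I chains to NK receptors. It was at 368, 201 and 169 FPKM in periodontitis and at 128, 133, 170.4 and 128 in health. Periodontitis 4 lay inside the health range, and the log2 change was 0.74 (SE 0.31, limma adjusted p 0.150). H2-T22, a ligand of some gamma-delta T cell receptors, was at 71.9, 51.4 and 32.8 FPKM in periodontitis and at 24.7, 32.8, 38.7 and 33.4 in health, with a log2 change of 0.62 (SE 0.29, limma adjusted p 0.196). H2-T24 ran the other way, at 6.35, 13.1 and 26.3 FPKM in periodontitis and 40.5, 33.2, 31.0 and 20.4 in health. Its groups overlapped through periodontitis 4 and health 4, and its log2 change was -1.15 (SE 0.43, limma adjusted p 0.109). Without periodontitis 4 it was -1.63 with a limma adjusted p of 0.0274.

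H2-M3, which presents formylated peptides of bacteria, was at 61.4, 49.1 and 40.6 FPKM in periodontitis and 68.6, 46.5, 79.4 and 38.7 in health. Its groups overlapped, and the log2 change was -0.17 (SE 0.30, limma adjusted p 0.732). H2-M2 was at 2.04, 0.690 and 0 FPKM in periodontitis and 1.48, 1.49, 1.54 and 3.12 in health (log2 change -0.72, SE 0.44, limma adjusted p 0.310). A further 12 class I genes were under 1 FPKM and were not tested. Of these 8 had no read in any library (H2-M1, H2-M9, H2-M10.1, H2-M10.3, H2-M10.4, H2-M10.5, H2-M11 and H2-T3). H2-M10.2 had 0 reads in periodontitis and 4 in health, H2-M10.6 had 0 and 11, H2-M5 had 2 and 21, and H2-Q1 had 43 and 68, in the same order. H2-Ke6 had 11 reads in periodontitis and 108 in health and was also under the filter. It shares 61.6% of its 100-base words with other genes.

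**Figure D3:**
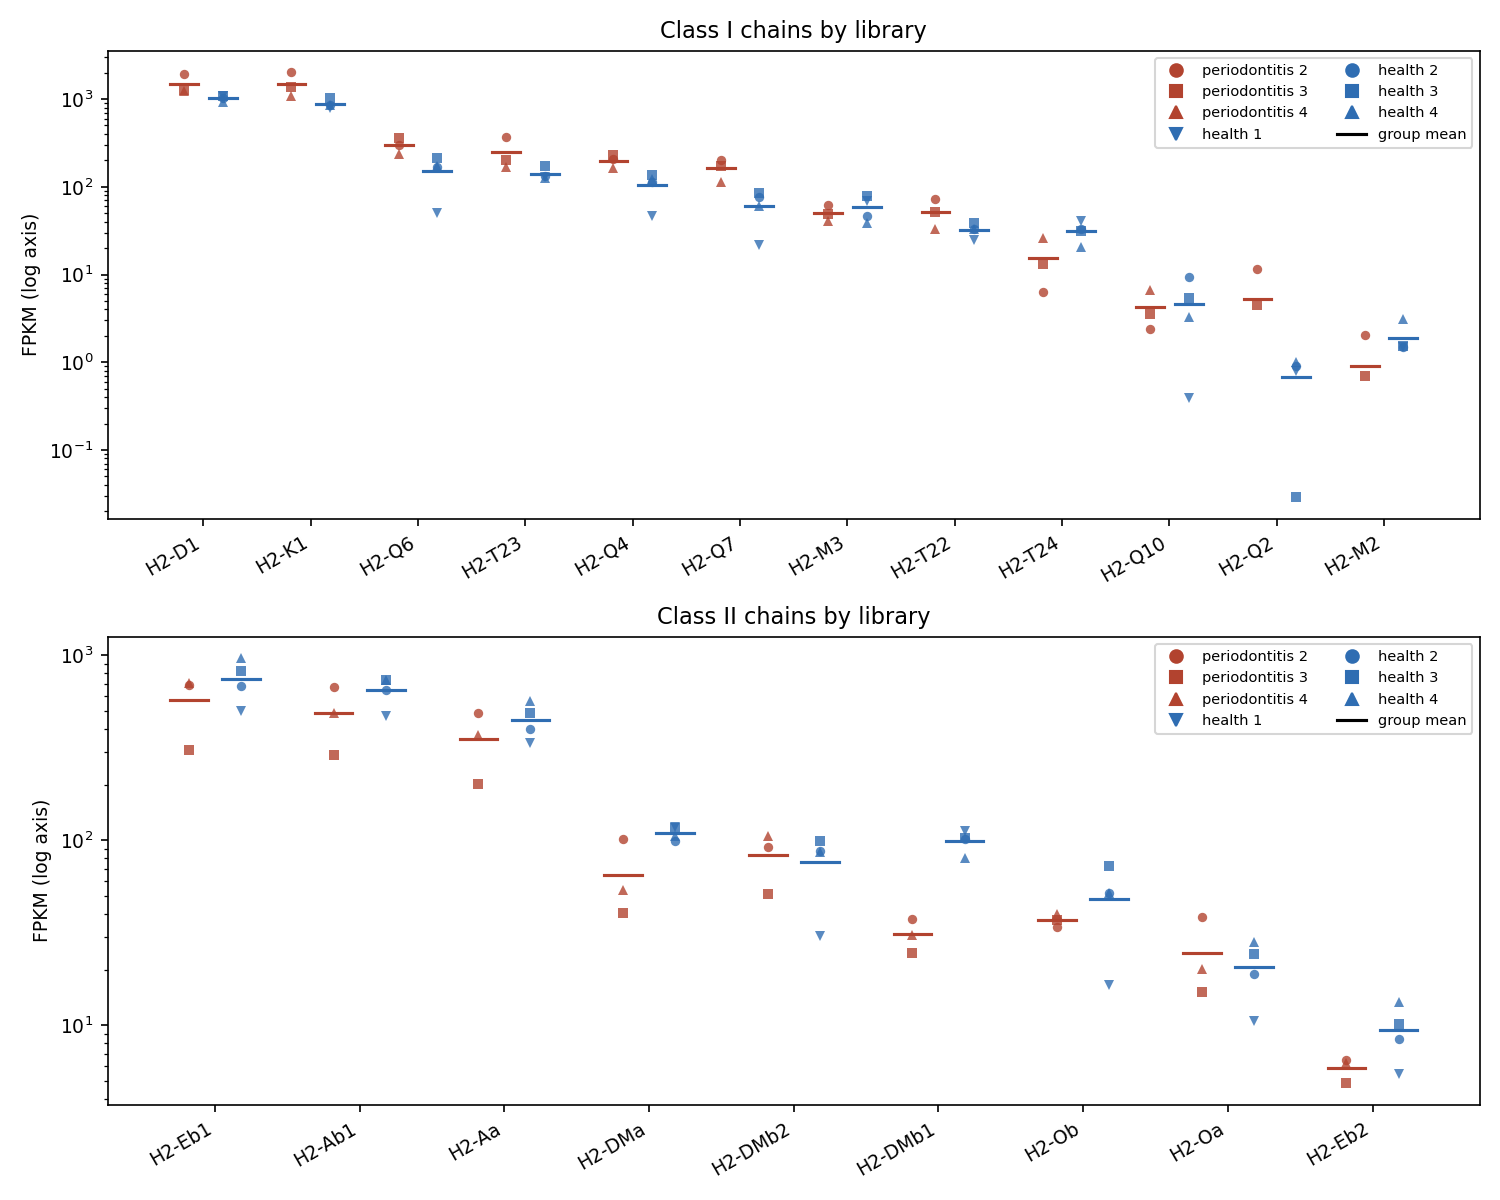
FPKM of the 12 tested class I genes and the 9 class II genes on log axes, with 1 point per library and a line at the group mean for periodontitis (n = 3) and health (n = 4); a library at 0 has no point. In deposited FPKM H2-K1, H2-D1, H2-Q4, H2-Q6 and H2-Q7 lie higher in every periodontitis library, and H2-DMb1 lies lower in each.

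Among the class I partners, B2m encodes beta-2-microglobulin, the light chain that every class I heavy chain here needs. It was at 4620, 1990.3 and 2044 FPKM in periodontitis and at 2499, 1963, 2192 and 1855 in health. Periodontitis 2 stood apart at the top and the other 2 lay inside the health range. The log2 change was 0.33 (SE 0.47, limma adjusted p 0.675), and without periodontitis 2 it was -0.067. B2m over the class I sum was 0.888, 0.532 and 0.659 in periodontitis and 1.10, 0.786, 0.758 and 0.790 in health, so relative to the heavy chains B2m was not higher in periodontitis.

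Tap1 and Tap2 encode the paired subunits of the transporter that carries peptides into the endoplasmic reticulum for class I loading. Tap1 was at 79.2, 77.1 and 79.0 FPKM in periodontitis, against 44.0, 49.4, 56.6 and 55.7 FPKM in health. In deposited FPKM the groups did not overlap, and the SD of the periodontitis libraries was 1.18 FPKM. The log2 change of Tap1 was 0.61 (SE 0.19, 0.17 to 1.04), with a limma adjusted p of 0.0647, which missed the threshold. Under the alternatives to the fit described below, the replicate block aside, it ran from 0.14 to 0.65. The limma adjusted p then ran from 0.0512 to 0.614. Tap2 was at 59.5, 63.7 and 38.7 FPKM in periodontitis and 34.7, 39.3, 45.7 and 36.5 in health (log2 change 0.43, SE 0.23, limma adjusted p 0.252). Tapbp, whose product tapasin holds class I at the transporter, was at 125, 98.4 and 101 FPKM in periodontitis and 106, 97.8, 111 and 87.4 in health (log2 change 0.10, SE 0.21, limma adjusted p 0.773). Nlrc5, the class I transactivator, was at 20.1, 34.1 and 30.1 FPKM in periodontitis and 14.6, 19.9, 21.7 and 18.5 in health. Its groups overlapped through periodontitis 2, and its log2 change was 0.54 (SE 0.24, limma adjusted p 0.169).

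The other genes of class I peptide supply gave no call, where 5.63% of all tested genes were called higher and 10.2% lower. Of the 5 immunoproteasome and activator genes (Psmb8, Psmb9, Psmb10, Psme1 and Psme2) 0 passed limma's threshold, with a median log2 change of 0.29; limma voom on the reads called 1 higher. At an unadjusted p under 0.05 this list had 1 gene, Psmb8, the protease subunit encoded between Tap1 and Tap2. Psmb8 was at 177, 82.8 and 104 FPKM in periodontitis and at 53.2, 64.7, 71.8 and 66.5 in health, with no overlap and a limma adjusted p of 0.0836. Of the 6 loading and trimming genes (Calr, Canx, Pdia3, Erap1, Tapbpl and Sec61a1) 0 passed, and 0 had an unadjusted p under 0.05, with a median log2 change of -0.36; limma voom called 0 of them.

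Genes of 3 peptide-presenting chains had the highest FPKM among the class II genes in both groups. H2-Eb1, the beta chain of I-E, was at 693, 309 and 709 FPKM in periodontitis and at 501, 679, 817 and 964 in health. H2-Ab1, the beta chain of I-A, was at 676, 289.6 and 487 FPKM in periodontitis and at 471, 648, 739 and 734 in health. H2-Aa, the I-A alpha chain, was at 488, 202 and 371 FPKM in periodontitis and at 336, 399.7, 489.8 and 564 in health. In each, periodontitis 3 was the lowest of all libraries and the groups overlapped. Log2 changes were -0.43 (SE 0.41), -0.48 (SE 0.37) and -0.40 (SE 0.37) for H2-Eb1, H2-Ab1 and H2-Aa, with limma adjusted p of 0.518, 0.416 and 0.501. Intervals of -1.37 to 0.51, -1.33 to 0.37 and -1.25 to 0.44 include both no change and a fall by over 1 on the log2 scale, so these libraries could not tell the 2 apart.

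The main A and E chain genes kept close shares of the class II sum. H2-Aa over H2-Ab1 was 0.727 ± 0.0320 in periodontitis and 0.690 ± 0.0652 in health. H2-Aa, H2-Ab1 and H2-Eb1 made up 21.2%, 29.2% and 34.2% of the class II sum in periodontitis and 20.3%, 29.6% and 33.4% in health. H2-Eb2, a minor beta chain, was at 6.46, 4.85 and 6.26 FPKM in periodontitis and at 5.48, 8.44, 10.2 and 13.4 in health (log2 change -0.55, SE 0.29, limma adjusted p 0.239). The gene of the I-E alpha chain is represented in the table by H2-Ea-ps, listed as a pseudogene, with 0 reads in periodontitis and 6 in health, all in health 1. The RNA of H2-Eb1 is therefore no measure of the paired I-E molecule.

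Cd74 encodes the invariant chain that fills the class II groove until the endosome. It was at 2136, 1005 and 1897 FPKM in periodontitis and at 2041, 2309.5, 2594 and 2513 in health. Periodontitis 2 lay inside the health range, and the log2 change was -0.56 (SE 0.44, limma adjusted p 0.419). Cd74 over H2-Ab1 was 3.51 ± 0.368 in periodontitis and 3.71 ± 0.420 in health, so it followed the class II chains library by library. Ciita, the class II transactivator, was at 4.41, 6.84 and 10.4 FPKM in periodontitis and at 8.36, 15.2, 14.5 and 18.5 in health. Only health 1 lay inside the periodontitis range, and the log2 change was -0.90 (SE 0.33, -1.65 to -0.14), with a limma adjusted p of 0.107.

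The gene that passed the test was H2-DMb1, on chromosome 17 from 34153072 to 34160230 (mm10, plus strand). It encodes a beta chain of H2-DM, the endosomal molecule that removes the invariant chain remnant from class II and edits its peptides. It was at 37.6, 24.7 and 30.8 FPKM in the periodontitis libraries, against 113, 101, 103 and 79.7 FPKM in the health libraries. The groups were far apart, with the highest periodontitis library below the lowest health library, at means of 31.0 ± 6.45 FPKM in periodontitis and 99.2 ± 13.9 in health. H2-DMb1 fell by 1.65 on the log2 scale (SE 0.23, -2.17 to -1.14), with a limma adjusted p of 0.00225. It was called lower under each alternative, with a limma adjusted p of 0.000393 to 0.0114, and 0.0270 with library number as a replicate block.

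Its neighbour H2-DMb2, from 34143307 to 34151553 on the same strand, encodes the other DM beta chain and gave other values. It was at 91.9, 50.9 and 106 FPKM in periodontitis and at 30.4, 87.9, 98.6 and 86.3 in health, with a log2 change of 0.19 (SE 0.45, limma adjusted p 0.806). The groups overlapped, and health 1 was lowest. H2-DMb2 over H2-DMb1 was 2.45, 2.06 and 3.43 in periodontitis, against 0.270, 0.867, 0.956 and 1.08 in health. Every periodontitis library stood above every health library on this ratio, at means of 2.65 ± 0.704 in periodontitis and 0.794 ± 0.360 in health. The 2 genes share 11.3% of the 100-base words of H2-DMb1 and 10.3% of those of H2-DMb2, so part of their reads could have been given to either. Summed over both genes, the level was 129, 75.6 and 136 FPKM in periodontitis and 143, 189, 202 and 166 in health, again without overlap. As a share of recovered reads, which reads moved from one gene to the other leave unchanged, the pair ran from 0.0139% to 0.0238% in periodontitis and from 0.0203% to 0.0338% in health, where the groups overlapped.

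**Figure D4:**
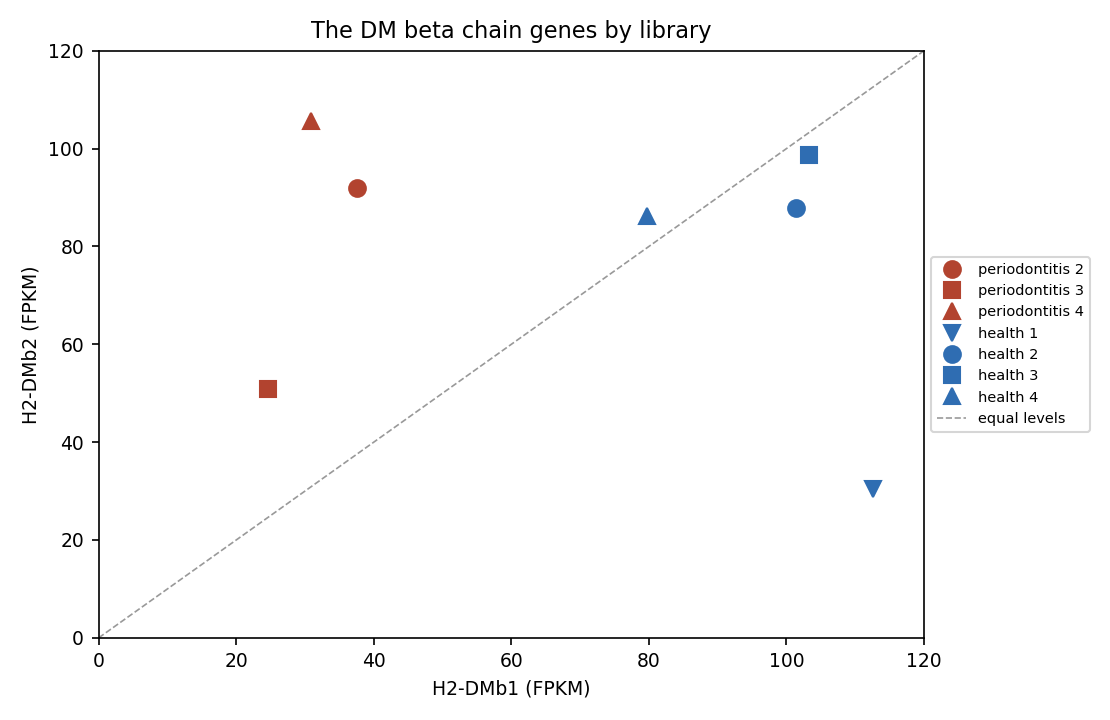
H2-DMb2 against H2-DMb1 in FPKM, 1 point per library, with a dashed line at equal levels. The 3 periodontitis libraries lie above the line at 24.7 to 37.6 FPKM of H2-DMb1, and the 4 health libraries lie on both sides of it at 79.7 to 113.

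H2-DMa, the alpha chain that pairs with either DM beta chain, was at 101, 40.6 and 53.5 FPKM in periodontitis and at 118, 98.7, 117 and 106 in health. Periodontitis 2 reached the health range and the other 2 did not. The log2 change was -0.85 (SE 0.31, -1.56 to -0.14) with a limma adjusted p of 0.106, and without periodontitis 2 it was -1.21 with a limma adjusted p of 0.00905. H2-Oa and H2-Ob encode H2-DO, a partner that restrains DM and is known mainly from B cells. H2-Oa was at 38.3, 15.03 and 20.2 FPKM in periodontitis and 10.5, 19.0, 24.3 and 28.3 in health (log2 change 0.22, SE 0.40, limma adjusted p 0.744). H2-Ob was at 33.8, 37.3 and 40.2 FPKM in periodontitis and 16.4, 51.7, 72.3 and 51.7 in health (log2 change -0.19, SE 0.45, limma adjusted p 0.805). Both overlapped between the groups, with health 1 lowest in each.

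In the list of class II processing and turnover, 5 of 7 genes were lower in periodontitis and 0 higher, with a median log2 change of -2.17. Over all tested genes 10.2% were called lower and 5.63% higher. Lgmn, an asparagine-specific protease of lysosomes, averaged 35.6 ± 10.5 FPKM in periodontitis and 406 ± 253 in health, with a log2 change of -3.35 (limma adjusted p 0.00151). Ctss, the protease that trims the invariant chain, averaged 173 ± 49.98 FPKM in periodontitis and 662 ± 284 in health, with a log2 change of -1.88 (limma adjusted p 0.0107). Ctsb and Ctsl, further lysosomal proteases, had log2 changes of -2.68 (limma adjusted p 0.00373) and -2.17 (limma adjusted p 0.00400). March1, a ubiquitin ligase that removes class II from the surface, was at 2.22, 3.36 and 5.15 FPKM in periodontitis and 27.2, 16.7, 17.2 and 22.9 in health, with a log2 change of -2.29 (SE 0.28, limma adjusted p 0.00142). Ifi30 at -0.99 and March8 at -1.24 did not pass. The A and E chain genes themselves, at -0.40 to -0.55, differed less in size than all 7 genes of this list, at -0.99 to -3.35. The difference between the 2 sets was not tested.

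Among the other lists, the promoter factors had 0 of 12 higher and 2 lower, with a median log2 change of -0.14. Over all tested genes 5.63% were called higher and 10.2% lower. Whether the counts in these short lists differ from those shares was not tested. Irf8, a factor of dendritic cells and B cells that is also in the dendritic cell list, averaged 14.6 ± 2.30 FPKM in periodontitis and 65.7 ± 9.51 in health (log2 change -2.09, limma adjusted p 0.000727). Spi1, a factor of myeloid cells and B cells, averaged 38.8 ± 16.3 FPKM in periodontitis and 121 ± 14.9 in health (log2 change -1.68, limma adjusted p 0.00510). Rfx5, part of the complex that binds the X box, was at -0.44, and Irf1, an interferon-induced factor, was at -0.01; neither was called. Of 4 tested class I-like genes outside the H2 region 3 were lower and 0 higher. They were Cd1d1, which presents lipids (log2 change -1.73, limma adjusted p 0.0129), Fcgrt, the neonatal Fc receptor (-3.01, limma adjusted p 0.00203), and Hfe, a regulator of iron uptake (-2.89, limma adjusted p 0.00309). Of 7 co-stimulation and partner genes 1 was higher and 1 lower. Cd4, the coreceptor for class II, averaged 124 ± 17.9 FPKM in periodontitis and 28.0 ± 0.930 in health (log2 change 2.10, limma adjusted p 0.000594), and is also in the T cell list. Cd86, a co-stimulatory ligand of antigen-presenting cells, averaged 6.57 ± 2.41 FPKM in periodontitis and 58.8 ± 28.3 in health (log2 change -2.92, limma adjusted p 0.00172).

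Class II levels were set beside the markers of the cell types known to make them. Of all tested genes 5.63% were called higher and 10.2% lower. B cell markers had 1 of 12 genes higher in periodontitis (Blk) and 0 lower, with a median log2 change of -0.15, and summed to 543 to 939.7 FPKM in periodontitis and 356 to 873 in health. Macrophage markers had 14 of 14 lower, with a median log2 change of -3.94, and none was at 0 in any library. Conventional dendritic cell markers had 5 of 11 tested genes lower and 0 higher, and summed to 98.1 to 141 FPKM in periodontitis and 417 to 791 in health. Cd209a was at 0 in some libraries. Sirpa made up most of the health sum, with a mean of 368 FPKM where the sums averaged 538. In periodontitis Sirpa averaged 24.6 FPKM where the sums averaged 119. Of the 11 tested genes 2 had a positive and 9 a negative log2 change. Plasmacytoid dendritic cell markers had 1 of 5 tested genes lower, and summed to 150.4 to 442 FPKM in periodontitis and 315 to 441 in health, with Ccr9, Klk1 and Cox6a2 at 0 in some libraries.

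The class II sum did not follow the macrophage marker sum across the groups. The class II sum over the macrophage sum was 2.17, 2.20 and 2.52 in periodontitis, against 0.103, 0.321, 0.305 and 0.467 in health. Over the B cell sum it was 2.31, 1.79 and 2.02 in periodontitis, against 4.49, 3.04, 2.83 and 3.52 in health. Both ratios separated the groups, in opposite directions. In periodontitis most of the B cell sum came from Cd79a, Cd79b and Blk, at means of 276, 188 and 124 FPKM. In health these averaged 221, 153 and 32.7 FPKM. Of the 12 B cell markers 5 had a positive and 7 a negative log2 change. The ratio to the B cell sum without Cd79a, Cd79b and Blk was not examined. Within health, library 1 had the highest macrophage sum (15581 FPKM, against 5622 to 8101 in the other 3) and the lowest B cell sum (356 FPKM, against 690 to 873). It also had the lowest levels of H2-Eb1, H2-Ab1, H2-Aa, H2-DMb2, H2-Oa and H2-Ob of the 4. H2-DMb1 and H2-DMa were instead highest in health 1 among the health libraries. The part of each cell type in these levels was not tested.

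**Figure D5:**
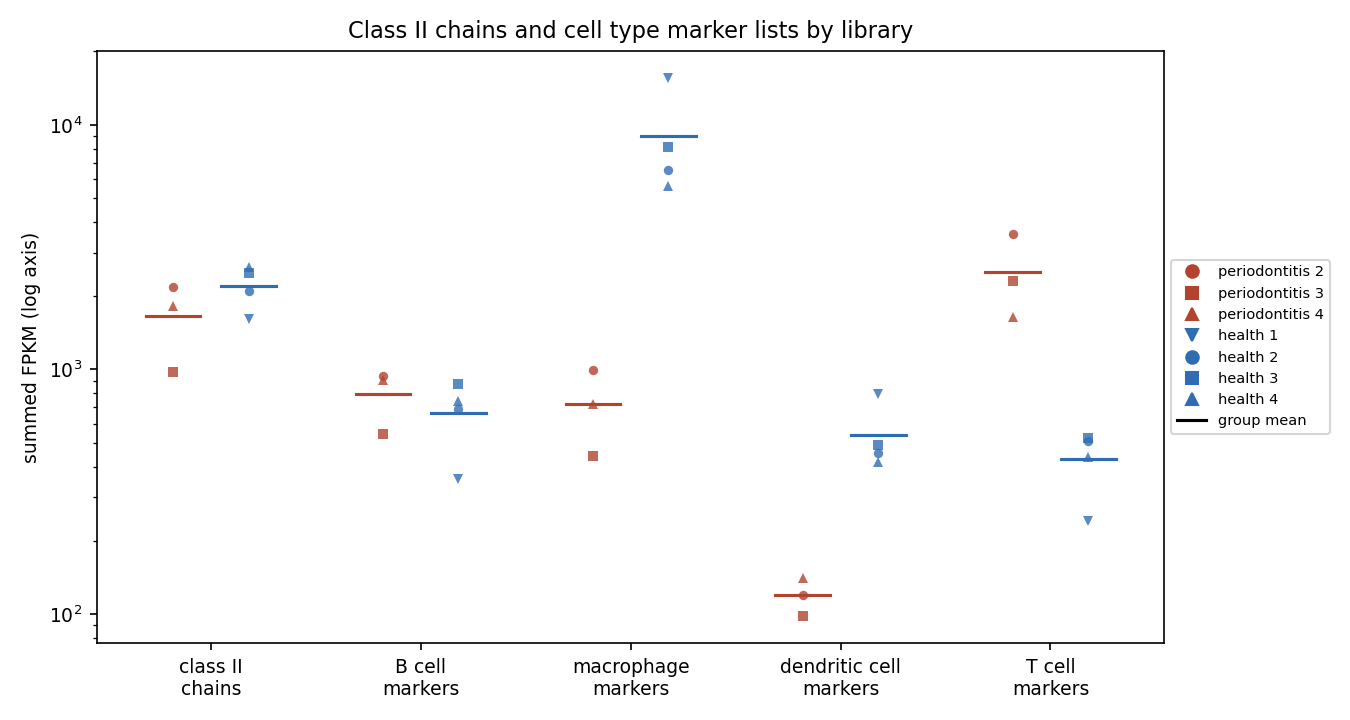
Summed FPKM on a log axis of the class II chains and of the B cell, macrophage, conventional dendritic cell and T cell marker lists, with 1 point per library and a line at the group mean for periodontitis (n = 3) and health (n = 4). Macrophage, dendritic cell and T cell sums separate the groups, and the class II and B cell sums overlap. Most of the dendritic cell sum in health is Sirpa.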

How the data were processed

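The authors deposited one table of FPKM values, with gene length, position and biotype. The submitters' processing notes name build mm10, HISAT2 2.0.5, featureCounts 1.5.0-p3 and DESeq2; which step used each, with what settings, strand use or annotation, is not given in the sources used here. FPKM times gene length gave whole reads within 0.001 of a read for all nonzero values, so depth is known: 1 read in a gene of 1 kilobase is worth 0.0594 to 0.0705 FPKM. The library total behind the FPKM was 0.889 to 1.12 times the recovered reads. FPKM columns sum to 475268 to 568848 in periodontitis and 375857 to 379328 in health.

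Genes averaging 1 FPKM or more across the 7 libraries were fitted in limma 3.58.1 (R 4.3.3) on log2(FPKM + 1), with moderated variances that follow a trend in the mean. P-values are two-sided and Benjamini-Hochberg adjusted over all genes tested. Fold changes on this scale understate the change of low genes. The fit was tested on simulated data. All pairs of libraries differed by more than sampling noise (lowest chi-square per degree of freedom 27.3).

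Groups and numbers follow the library names given as sample descriptions; the titles number the periodontitis libraries differently. Members, gene lists and tests were chosen with earlier results of these data known. The rule names every tested member and, from each pathway list, the genes past the threshold. Psmb8, H2-Q5, H2-Ea-ps, Blk, Sirpa, Xist, Ddx3y, Il17a and list members given as not called were named after their values were seen. The names of March1 and March8 are written as dates in the deposited table and were matched by gene identifier. All 41 members matched GENCODE M21 by identifier, 31 with the same position. Shared sequence was counted as 100-base words of those transcripts, matched on either strand, so genes that overlap on the chromosome count too.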

Additional observations from a re-analysis of the deposited data

Results flagged for a closer look

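Among the 4 health libraries, 1 library stood far from the other 3 for 6 of 51 results examined in this way; chance alone gives about 1 in 20. H2-T23 was at 170.4 FPKM in health 3, against 128 to 133 in the other health libraries. H2-M2 was at 3.12 FPKM in health 4, against 1.48 to 1.54. The other 4 all concern health 1, the library with the highest macrophage marker sum. Lgmn was at 785 FPKM there, against 266 to 298, and Ctsb at 1591 FPKM, against 574 to 686. Ctsl was at 25.1 FPKM in health 1, against 9.67 to 12.1, and Hfe at 129 FPKM, against 45.1 to 53.3. Without health 1 these 4 genes were still called lower in periodontitis by limma.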

How the results depend on the processing

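Over 17 alternatives to the fit (another pseudocount, 2 filters, 3 scalings, limma voom on reads with 2 scalings, library weights, each of the 7 libraries left out, and the replicate block), the 28 tested members kept sign and side of the threshold in 435 member results, newly passed it in 13 and changed sign in 25, none of them called. H2-DMb1 was called lower in each.

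Members called higher (0) became 1 with limma voom under either scaling (H2-Q7), and 0 to 1 without each library in turn (H2-Q2 without periodontitis 4). Members called lower (1) became 5 when each library was rescaled to the same FPKM total (H2-DMb1, H2-DMa, Ciita, H2-Eb2 and H2-T24), 3 under quantile normalization (H2-DMb1, H2-DMa and H2-Ab1), 2 without features under 200 bases (H2-DMb1 and H2-DMa), 2 with library weights (the same pair) and 1 to 2 without each library in turn (H2-DMa without periodontitis 2, H2-T24 without periodontitis 4). Rescaling moved the median of all genes by -0.38 (same total), 0.12 (quantile) and -0.15 (no short features). Over all genes, 732 higher and 1321 lower became 417 and 2723 under the same total, where 13.3% of the calls were higher, against 35.7% as reported and 27.0% without short features. Without each library in turn the counts ran from 427 to 881 higher and from 864 to 1370 lower. Without health 2 they were 427 and 864, and without health 3, 468 were higher.

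Sign changes under the same total were B2m -0.14, H2-DMb2 -0.27, H2-Oa -0.23, H2-Q10 -0.19, Tap2 -0.027 and Tapbp -0.36. Under quantile normalization they were H2-DMb2 -0.043 and Tapbp -0.13, and without short features H2-DMb2 -0.0056 and Tapbp -0.093. With library weights they were H2-DMb2 -0.27, H2-Oa -0.13 and H2-Q10 -0.24. Without each library in turn, B2m ran from -0.067 to 0.54 and Tapbp from -0.0045 to 0.17 (both lowest without periodontitis 2), H2-Oa from -0.14 (without periodontitis 2) to 0.50, H2-DMb2 from -0.20 to 0.50 and H2-Q10 from -0.41 to 0.55 (both lowest without health 1), and H2-Ob from -0.63 to 0.060 (highest without health 3). The cause was not tested.

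Equal library numbers share no stated source, and same-numbered libraries did not deviate together (correlations -0.07, -0.02 and 0.06), so they were not treated as pairs. A replicate block over libraries 2 to 4 of both groups, which drops health 1, gave 325 genes higher and 616 lower, and 0 members higher and 1 lower. It gave H2-DMb2 -0.20, H2-Oa -0.051 and H2-Q10 -0.41, and Ctss missed the threshold (limma adjusted p 0.0535).

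With 3 and 4 libraries the intervals of most members include no change, and the groups differ in sex markers and in cell type markers. Genes that share sequence with other genes are uncertain, and FPKM totals differ between the groups.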

Other observations

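H2-T-ps, an H2 entry that the table lists outside the protein-coding genes, was higher in periodontitis. It was at 37.1, 22.7 and 31.8 FPKM in the periodontitis libraries, against 5.53, 10.4, 9.10 and 7.60 FPKM in the health libraries. Its log2 change was 1.79 (SE 0.26, limma adjusted p 0.00292), and it was singled out after its values were seen. The genes beside it in name, H2-T22 and H2-T23, did not pass the test.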
